A study of Mus musculus with 12 samples.

Results

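Pericentral hepatocytes surround the central vein of each liver lobule, and the 10 genes described here (Glul, Oat, Slc1a2, Rhbg, Axin2, Lgr5, Tbx3, Lect2, Rnf43 and Znrf3) are known for depending on Wnt signalling in those cells. They were chosen by name, as the genes of the expected count table whose symbol equalled one of these names, and all 10 were found among 24411 listed genes. The names were chosen with earlier results of these data known. RNA was sequenced from whole livers of C57BL/6 mice at 3 months of age, with 3 mice in each of 3 groups. Control mice (cont.) carried floxed Atg7 alleles and no Cre (Atg7flox/flox). Atg7-KO mice carried the same floxed alleles with the Alb-Cre transgene (Atg7flox/flox;Alb-Cre). The third group carried the floxed alleles, Alb-Cre and 2 copies of p62 with the T352A substitution (Atg7flox/flox;Alb-Cre;p62T352A/T352A) and is called double-mutant below. All mice of the 3 groups therefore shared the floxed Atg7 alleles. Alb-Cre is driven by the albumin promoter and is used to delete floxed genes in hepatocytes, and which cells of these livers had lost Atg7 was not resolved by whole-liver RNA. The T352A change was knocked into the endogenous p62 gene (Sqstm1) and removes the retention of KEAP1 in p62 bodies, and the study asked whether that retention contributes to NRF2 activation when autophagy is blocked. Livers of p62T352A mice with intact autophagy were not analysed here. Expected counts per library summed to between 9671073 and 23285134.

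Wnt ligands and R-spondin released by endothelial cells of the central vein keep β-catenin active in the hepatocytes next to it. There, β-catenin with TCF/LEF factors turns on genes for glutamine synthesis and drug metabolism, and genes that feed back on the pathway. Periportal hepatocytes lie at the other end of the lobule, see little Wnt, and carry urea synthesis and gluconeogenesis. Of the 10 genes, Glul, Oat, Slc1a2 and Rhbg serve glutamine, glutamate and ammonia handling, Axin2, Lgr5, Rnf43 and Znrf3 act on the Wnt signal itself, Tbx3 encodes a transcription factor and Lect2 a secreted protein.

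In Atg7-KO livers 7 of the 10 genes fell against controls, 1 rose (Rhbg) and 2 did not pass the test (Lect2 and Znrf3). The falls ranged from 46.8-fold for the glutamate transporter gene Slc1a2 to 2.23-fold for the E3 ligase gene Rnf43. In double-mutant livers 6 genes were higher than in Atg7-KO livers, 1 was lower (Rhbg) and 3 did not pass, and against controls none of the 10 passed. A gene was called here when edgeR's quasi-likelihood test gave a false discovery rate under 0.05 and the fold change was over 1.5. By that rule 22.1% of the 13922 genes tested were lower and 21.6% were higher in Atg7-KO than in control livers. For double-mutant against Atg7-KO livers the shares over all tested genes were 24.7% higher and 26.2% lower. For double-mutant against control livers they were only 6.25% higher and 5.34% lower. All 10 genes passed the filter on low counts and were tested.

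The labels were checked first against the genes that were altered. Atg7 was at 46.4, 44.2 and 55.4 normalized CPM (counts scaled to the same library size with edgeR's TMM factors) in control mice 1, 2 and 3, at 10.1, 9.57 and 12.0 in the Atg7-KO mice and at 29.7, 27.4 and 29.5 in the double-mutant mice. The groups did not overlap, and Atg7 fell in both mutant groups (in double-mutant livers a call lost without any 1 of their 3 mice, adjusted p = 0.0524 to 0.07), but it was 2.73-fold higher in double-mutant than in Atg7-KO livers (adjusted p = 0.000164). Its part in the differences between those groups given below was not tested. Sqstm1 was 914 ± 44.2 in Atg7-KO, 545 ± 71.1 in double-mutant and 387 ± 103 normalized CPM in control mice (mean ± SD, n = 3). Xist, the transcript that silences an X chromosome, was at 0.401, 1.35 and 0.643 normalized CPM in the mice numbered 1 of the control, Atg7-KO and double-mutant groups and at 373 or more in all others. Mouse 1 of each group thus stood apart from its group in Xist, so the comparisons were also made with mice 2 and 3 alone. Control mouse 1 also had the deepest library, with 23285134 expected counts beside 11108107 and 9671073 in control mice 2 and 3.

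Glul encodes glutamine synthetase, which joins ammonia to glutamate and in liver is held to the hepatocytes nearest the central vein. It lies at chr1:153899944-153909723 (GRCm38, plus strand). Its level was 871, 1053 and 1233 normalized CPM in control mice 1, 2 and 3, 244.5, 298 and 245 in Atg7-KO mice, and 1054, 1539 and 1272 in double-mutant mice. Every Atg7-KO mouse was below every other mouse, and the control and double-mutant ranges overlapped. Glul fell by 2.00 on the log2 scale in Atg7-KO against control livers (SE 0.227, 4.01-fold lower, adjusted p = 0.000168) and was 4.91-fold higher in double-mutant than in Atg7-KO livers (adjusted p = 9.1e-05). Against controls the double-mutant livers differed by 0.29 on the log2 scale (95% interval -0.198 to 0.781, adjusted p = 0.419). Of all 75-base stretches in its exons, 6.63% also occur in other annotated transcripts.

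Slc1a2, the glutamate transporter GLT-1 gene, lies at chr2:102658659-102790784 (plus strand) and had the lowest Atg7-KO level relative to controls of the 10. It was at 111, 230 and 263 normalized CPM in control mice, 3.68, 5.96 and 3.24 in Atg7-KO mice and 90.8, 149 and 115 in double-mutant mice. Atg7-KO levels averaged 2.13% of the control mean with no overlap, and the double-mutant mean was 58.7% of it with ranges that overlapped. The fall in Atg7-KO livers was 46.8-fold (log2 difference -5.55, SE 0.423, adjusted p = 2.5e-05), and double-mutant livers were 27.5-fold higher than Atg7-KO livers (adjusted p = 5.06e-05). Double-mutant and control livers differed by -0.77 (95% interval -1.54 to 0.00734, adjusted p = 0.181). Slc1a2 is 1 of 2 genes among the 10, with Lect2, whose promoter window held the TCF/LEF core motif, so both windows are shown. Windows of 250 bases before to 50 bases after the RefSeq start site (GRCm38.p6) were found for 6 of the 10 genes. The motif, CTTTGAT on either strand, is in capitals, and in both windows it was found on the strand opposite to the gene, so that it is printed as ATCAAAG.
Slc1a2, chr2:102706188-102706487, plus strand: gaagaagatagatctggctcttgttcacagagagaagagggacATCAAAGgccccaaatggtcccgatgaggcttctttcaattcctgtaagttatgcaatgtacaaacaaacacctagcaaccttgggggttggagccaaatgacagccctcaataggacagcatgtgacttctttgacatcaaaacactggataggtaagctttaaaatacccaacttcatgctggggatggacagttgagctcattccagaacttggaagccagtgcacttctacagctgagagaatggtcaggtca
Lect2, chr13:56548489-56548788, minus strand: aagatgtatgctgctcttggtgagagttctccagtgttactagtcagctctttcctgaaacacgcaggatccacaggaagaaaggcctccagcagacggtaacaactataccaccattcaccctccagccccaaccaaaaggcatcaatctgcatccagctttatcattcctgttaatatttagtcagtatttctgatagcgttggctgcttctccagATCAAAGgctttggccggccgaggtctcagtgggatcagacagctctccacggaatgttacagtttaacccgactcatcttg
The Slc1a2 match starts 207 bases and the Lect2 match 32 bases before the start site. Over all 32851 promoter windows 3.73% held CTTTGAT. No window of the 6 genes held TGACNNNGC, the core of the antioxidant response element that NRF2 binds, which 12.4% of all windows held. The Slc1a2 window lies inside the annotated gene, since the RefSeq start site is downstream of the gene start given above. These matches describe letters in a window and were not tested against binding.

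Oat, ornithine aminotransferase, turns ornithine into a precursor of glutamate and lies at chr7:132557478-132576398 (minus strand). Its control levels were 606, 641 and 1852 normalized CPM, its Atg7-KO levels 50.4, 57.5 and 39.3, and its double-mutant levels 541, 874 and 651. Control mouse 3 was well above the other control mice, and the Atg7-KO mice were below all others. Oat fell 21.1-fold in Atg7-KO livers (log2 difference -4.40, SE 0.478, adjusted p = 0.000139), or 12.8-fold without control mouse 3 (adjusted p = 0.000105), and was 14.0-fold higher in double-mutant than in Atg7-KO livers (adjusted p = 0.000224). Its double-mutant against control difference was -0.59 (95% interval -1.52 to 0.347, adjusted p = 0.395), and without control mouse 3 it was 0.14.

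Rhbg encodes an ammonia transporter of the hepatocyte membrane and lies at chr3:88242874-88254709 (minus strand). It was the only one of the 10 called in the opposite direction. Levels were 9.68, 9.64 and 24.6 normalized CPM in control mice, 35.2, 52.6 and 41.2 in Atg7-KO mice, and 14.7, 24.2 and 18.7 in double-mutant mice. All Atg7-KO mice were above all others. Rhbg rose 2.96-fold in Atg7-KO livers (log2 difference 1.56, SE 0.373, adjusted p = 0.00772) and was 2.24-fold lower in double-mutant than in Atg7-KO livers (adjusted p = 0.0229). Its counts are uncertain because 59.9% of its 75-base stretches also lie in Gm38392, a gene on the same strand whose symbol the count table does not list. The double-mutant difference lost its call without Atg7-KO mouse 2 (adjusted p = 0.0803), double-mutant mouse 1 (0.0833) or double-mutant mouse 3 (0.0664).

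**Figure D1:**
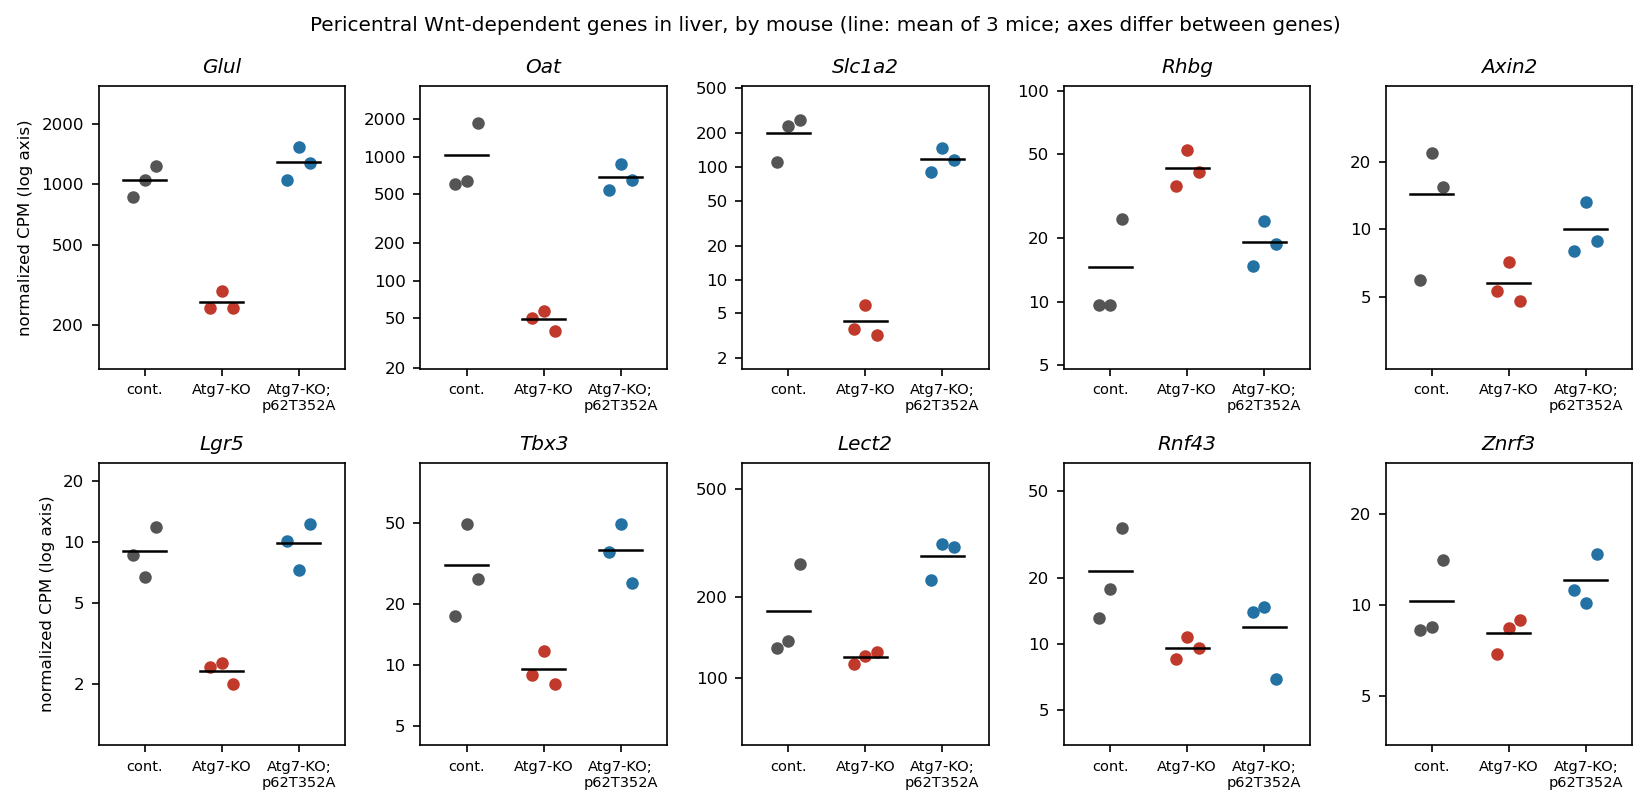
Normalized CPM (log axis, a separate scale for each gene) of the 10 genes in each mouse of the control, Atg7-KO and double-mutant (Atg7-KO;p62T352A) groups, with points for mice and a line for the mean of 3. For Glul, Oat, Slc1a2, Lgr5, Tbx3 and Lect2 the 3 Atg7-KO points lie below all 6 others, for Lect2 by little against controls. For Rhbg they lie above all 6, and for Axin2 control mouse 1 lies among them.

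Among the genes that act on the Wnt signal, Lgr5 encodes a receptor for R-spondins, which strengthen Wnt signalling, and lies at chr10:115450311-115587780 (minus strand). It was at 8.60, 6.71 and 11.9 normalized CPM in control mice, 2.42, 2.55 and 2.00 in Atg7-KO mice, and 10.1, 7.29 and 12.3 in double-mutant mice. Atg7-KO mice were below all others, and control and double-mutant ranges overlapped. Lgr5 fell 3.88-fold in Atg7-KO livers (log2 difference -1.96, SE 0.282, adjusted p = 0.000586) and was 4.25-fold higher in double-mutant than in Atg7-KO livers (adjusted p = 0.000344). The double-mutant against control difference was 0.13 (95% interval -0.467 to 0.731).

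Axin2 encodes a scaffold of the complex that destroys β-catenin and is widely used as a readout of the pathway (chr11:108920349-108950783, plus strand). Levels were 5.96, 21.8 and 15.4 normalized CPM in control mice, 5.27, 7.15 and 4.78 in Atg7-KO mice, and 8.00, 13.2 and 8.81 in double-mutant mice. Control mouse 1 lay within the Atg7-KO range, while control mice 2 and 3 were above it. Axin2 fell 2.49-fold in Atg7-KO livers (log2 difference -1.31, SE 0.419, adjusted p = 0.028), a call lost without control mouse 2 (adjusted p = 0.0916), control mouse 3 (0.0622), Atg7-KO mouse 1 (0.0842) or Atg7-KO mouse 3 (0.0942). Double-mutant livers differed from Atg7-KO livers by 0.80 (95% interval -0.127 to 1.73, adjusted p = 0.128), and with mice 2 and 3 alone by 0.88 (adjusted p = 0.0313).

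Rnf43 and Znrf3 encode related E3 ligases that remove Frizzled receptors from the cell surface and so dampen Wnt signalling. Rnf43 (chr11:87662722-87735539, plus strand) was at 13.2, 17.9 and 33.9 normalized CPM in control mice, 8.51, 10.8 and 9.60 in Atg7-KO mice, and 14.1, 14.8 and 6.92 in double-mutant mice. Atg7-KO mice were below all control mice, and double-mutant mouse 3 was below every Atg7-KO mouse. Rnf43 fell 2.23-fold in Atg7-KO livers (log2 difference -1.16, SE 0.373, adjusted p = 0.029), and the call was lost without control mouse 3 (log2 difference -0.69, adjusted p = 0.112) or without any 1 Atg7-KO mouse (adjusted p = 0.0617 to 0.0925). A fit with a block for replicate number also lost this call, as given in the last paragraph. Double-mutant livers differed from Atg7-KO livers by 0.30 (95% interval -0.525 to 1.13, adjusted p = 0.509). Znrf3 (chr11:5276324-5444847, minus strand) was at 8.25, 8.42 and 14.1 normalized CPM in control, 6.87, 8.38 and 8.87 in Atg7-KO and 11.2, 10.2 and 14.8 in double-mutant mice. Control and Atg7-KO mice overlapped, and double-mutant mice were above all Atg7-KO mice. Neither Znrf3 difference passed, at -0.34 (95% interval -0.911 to 0.229, adjusted p = 0.299) in Atg7-KO against control livers and 0.58 (0.016 to 1.15, adjusted p = 0.0767) in double-mutant against Atg7-KO livers. The second was called, just past the 1.5-fold limit, without control mouse 1 (adjusted p = 0.0368) or control mouse 3 (0.0326).

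Tbx3, a transcription factor gene used as a pericentral marker, lies at chr5:119670669-119684724 (plus strand). It was at 17.6, 49.8 and 26.5 normalized CPM in control mice, 8.95, 11.8 and 8.11 in Atg7-KO mice, and 36.3, 49.4 and 25.4 in double-mutant mice. Atg7-KO mice were below all others, with control mouse 1 the nearest to them. Tbx3 fell 3.25-fold in Atg7-KO livers (log2 difference -1.70, SE 0.385, adjusted p = 0.00601) and was 3.85-fold higher in double-mutant than in Atg7-KO livers (adjusted p = 0.00253). The double-mutant against control difference was 0.25 (95% interval -0.588 to 1.08), and turned to -0.04 without control mouse 1.

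Lect2 encodes a protein that hepatocytes secrete into the blood (chr13:56542464-56548502, minus strand), and its promoter window is printed above. Levels were 129, 137 and 263 normalized CPM in control mice, 113, 121 and 125 in Atg7-KO mice, and 231, 314 and 306 in double-mutant mice. In normalized CPM the Atg7-KO mice were below all control mice by little, and below all double-mutant mice by a wider margin. Whether the small margin holds without the TMM factors, which are given in the last section, was not examined. Lect2 did not pass in Atg7-KO against control livers, at -0.56 on the log2 scale (95% interval -1.18 to 0.0573, adjusted p = 0.122), but was 2.37-fold higher in double-mutant than in Atg7-KO livers (adjusted p = 0.00468). Without control mouse 1 the Atg7-KO difference was -0.75 and passed (adjusted p = 0.0267).

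**Figure D2:**
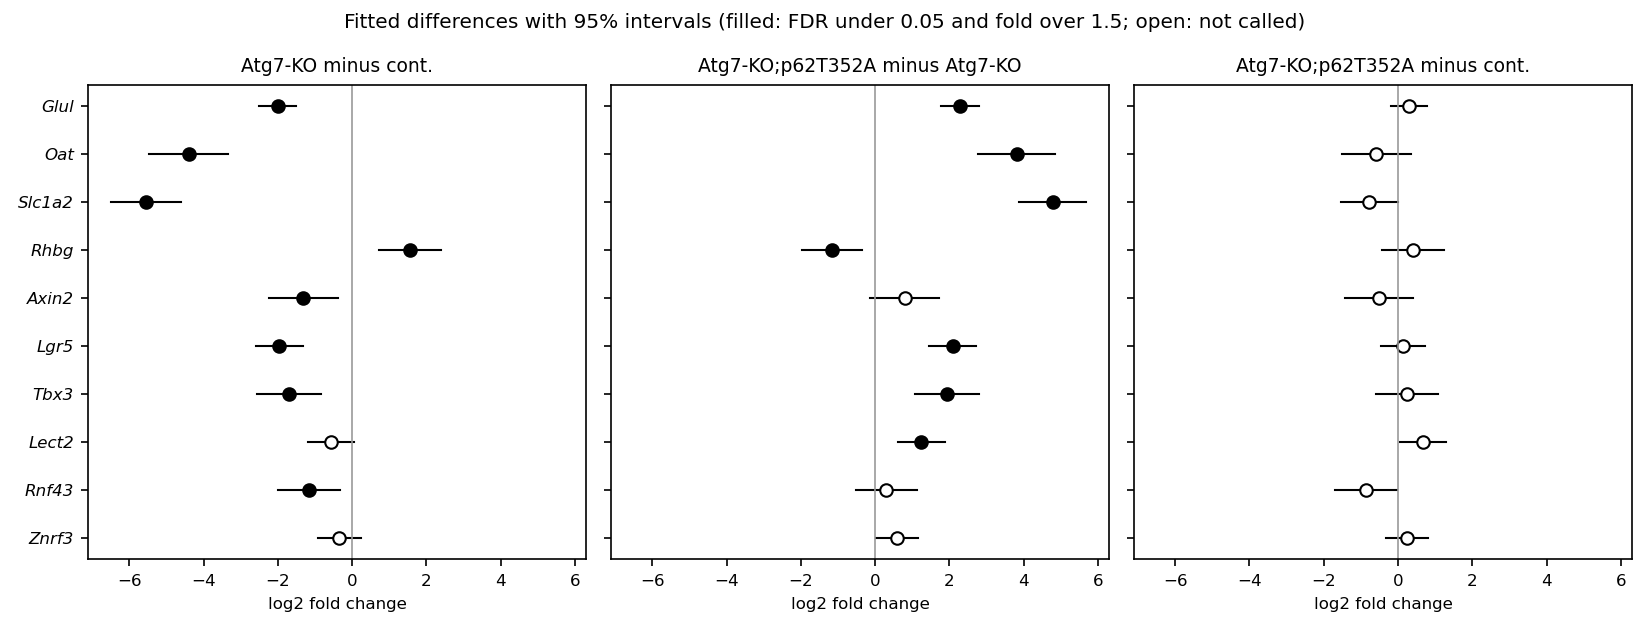
Fitted log2 fold changes of the 10 genes with 95% intervals in the 3 comparisons, filled where the gene was called and open where it was not. In Atg7-KO against control 7 filled points lie left of 0 and Rhbg lies right of it, and in double-mutant against control all 10 points are open.

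Across the 10 genes the median log2 difference in Atg7-KO against control livers was -1.51, beside -0.03 over all genes tested, and 8 genes had groups that did not overlap, as did 55.5% of all genes tested. In double-mutant against Atg7-KO livers the median was 1.60, beside 0.00211 over all genes, and 9 genes did not overlap, as did 73.2% of all genes tested. These 2 comparisons share the Atg7-KO mice, so their opposite signs are not separate observations. Because the 10 genes were chosen with earlier results of these data known, their medians beside those of all genes are a description only. Against controls no gene of the 10 was called in double-mutant livers by edgeR or by DESeq2, 2 had an unadjusted p under 0.05 (Lect2 and Rnf43), and 6.25% of all tested genes were higher and 5.34% lower. That count was 3 without control mouse 1 (Slc1a2, Axin2 and Rnf43, lower) and 2 without control mouse 3 (Rhbg and Lect2, higher). With mice 2 and 3 alone 8 genes were called in Atg7-KO against control livers, 8 in double-mutant against Atg7-KO livers and 0 in double-mutant against control livers. The shares of all genes given above are those with all mice, and should not be set beside counts from fewer mice. Over all genes the calls in double-mutant against control livers also changed with the mice used, as given in the last section. In RNA from whole liver, fewer cells of a type and less RNA per cell cannot be told apart.

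Per kilobase of exon the control levels fell in the order Oat, Glul, Lect2, Slc1a2, Rhbg, Tbx3, Rnf43, Axin2, Znrf3 and Lgr5. Oat averaged 438 ± 301, Glul 317 ± 54.5 and Lect2 192 ± 81.8 CPM per kilobase (SD, n = 3), and the ranges of neighbours in this order overlapped for these 3. Slc1a2 was at 15.3 ± 6.07, below all 3, and Lgr5 was lowest at 0.883 ± 0.254. Lect2 and Slc1a2 were the only neighbours in this order with ranges that did not overlap. In Atg7-KO livers Lect2 was highest at 130 ± 6.81, above Glul at 79.0 ± 9.22, and Rhbg at 22.2 ± 4.57 stood beside Oat at 20.8 ± 3.89, with overlapping ranges.

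The 5 genes whose pattern was most like that of Glul, by Pearson's r of log2 CPM over the 9 libraries, were Kng1 (r = 0.996), 0610005C13Rik (0.991), Fah (0.990), Zap70 (0.989) and Proc (0.989). The 9 points share the 3 genotypes, so these values describe the order of groups. Kng1, the kininogen gene, was 2536 ± 249.5 normalized CPM in control, 1187 ± 45.0 in Atg7-KO and 2830 ± 389 in double-mutant mice (SD, n = 3). Proc encodes the clotting inhibitor protein C and Fah the last enzyme of tyrosine breakdown, both made by hepatocytes. Among the 10 genes, r was highest between Oat and Slc1a2 (0.984) and between Glul and Slc1a2 (0.971), while Rnf43 had 0.478 with Glul. Rhbg had -0.69 with Glul and -0.769 with Slc1a2.

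The rest of the Wnt pathway was followed through 62 genes, of which 51 were tested. In Atg7-KO against control livers 9 were higher and 14 lower (17.6% and 27.5%, beside 21.6% and 22.1% of all genes). In double-mutant against Atg7-KO livers 15 were higher and 16 lower (29.4% and 31.4%, beside 24.7% and 26.2%). These shares were near those of all genes. The ligand group, with R-spondins and the genes that process and carry Wnt proteins, had 9 tested genes, of which 6 fell and 2 rose in Atg7-KO livers. Rspo3, the R-spondin of the central vein endothelium, was at 8.25, 13.1 and 15.5 normalized CPM in control mice, 6.87, 5.63 and 5.12 in Atg7-KO mice, and 19.9, 17.7 and 30.4 in double-mutant mice. The ranges of the 3 groups did not overlap, with Atg7-KO mice lowest. Rspo3 fell 2.08-fold in Atg7-KO livers (adjusted p = 0.0138), a call lost without Atg7-KO mouse 2 (0.0507) or Atg7-KO mouse 3 (0.0573), and was 3.86-fold higher in double-mutant than in Atg7-KO livers (adjusted p = 0.000545). Its double-mutant against control difference of 0.89 on the log2 scale did not pass (adjusted p = 0.0701), and 10.7% of its 75-base stretches occur in another transcript. The endothelial ligand genes Wnt2 and Wnt9b fell 1.88-fold and 2.63-fold in Atg7-KO livers (adjusted p = 0.00945 and 0.0408). For Wnt9b control mouse 1, at 1.49 normalized CPM, lay within the Atg7-KO range, and its call was lost in 7 of 9 fits that each left out 1 mouse (adjusted p up to 0.136), all but those without control mouse 1 or double-mutant mouse 3. Wnt2 was 1.60-fold higher in double-mutant than in Atg7-KO livers (adjusted p = 0.0286), a call lost without any 1 Atg7-KO mouse or double-mutant mouse 2 or 3 (up to 0.102), and for Wnt9b that difference was 0.80 on the log2 scale (adjusted p = 0.193). Porcn, which attaches the lipid that Wnt proteins need, fell 5.66-fold in Atg7-KO livers, whereas Wls, which carries Wnt proteins to the surface, rose 2.83-fold and Wnt4 rose 1.92-fold. The call for that rise of Wnt4 was lost without any 1 Atg7-KO mouse or control mouse 1 or 2 (adjusted p up to 0.0915). In double-mutant livers Wnt4 was 3.37-fold above controls (adjusted p = 0.0115) and 1.75-fold above Atg7-KO livers (adjusted p = 0.0427). The second call was lost without any 1 Atg7-KO mouse or double-mutant mouse 1 or 3 (adjusted p up to 0.168). Porcn was 5.50-fold higher and Wls 5.03-fold lower in double-mutant than in Atg7-KO livers.

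Of 12 receptor genes tested 1 rose and 1 fell in Atg7-KO against control livers, and of 22 transducer genes 1 rose and 4 fell. Fzd8, a Frizzled receptor gene, fell 3.47-fold and Fzd1 rose 1.75-fold, the latter a call lost without any 1 Atg7-KO mouse or control mouse 2 or 3 (adjusted p up to 0.137). Tcf7l2, a TCF/LEF factor gene, was at 36.6 ± 18.3 normalized CPM in control, 13.8 ± 0.747 in Atg7-KO and 63.1 ± 15.9 in double-mutant mice (SD, n = 3), a 2.64-fold fall (adjusted p = 0.012) and a 4.56-fold difference between the mutant groups (adjusted p = 0.00116). Its control mice 1, 2 and 3 were at 16.67, 40.56 and 52.64, so control mouse 1 was near the Atg7-KO range of 12.98 to 14.41. Tcf7, another TCF/LEF factor gene, rose 1.64-fold in Atg7-KO livers (adjusted p = 0.0342). That call was lost without any 1 Atg7-KO mouse or control mouse 2 or 3 (adjusted p up to 0.161). Dvl1, which relays the signal from Frizzled, fell 3.78-fold in Atg7-KO livers. For Dvl1 control mouse 1, at 65.55 normalized CPM, was near the Atg7-KO range of 47.69 to 51.65, and control mice 2 and 3 were at 242 and 259.9. Ctnnb1, the β-catenin gene, averaged 178 in control, 286 in Atg7-KO and 115 normalized CPM in double-mutant livers. Control mouse 1, at 272, lay within the Atg7-KO range of 269 to 307. Control mice 2 and 3, at 153 and 110, were below it. The Atg7-KO difference of Ctnnb1, 0.68 on the log2 scale, did not pass (adjusted p = 0.0818). Ctnnb1 was 2.49-fold lower in double-mutant than in Atg7-KO livers (adjusted p = 0.00474). Lgr4, the Lgr5 relative, was 1.40-fold lower in Atg7-KO livers, under the 1.5-fold limit (adjusted p = 0.0447).

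All 8 tested genes of the inhibitor and feedback group were called in Atg7-KO against control livers, 5 higher and 3 lower. The calls for Myc (given below) and Sfrp1 depended on single mice, that of Sfrp1 being lost without any 1 Atg7-KO mouse or control mouse 2 or 3 (adjusted p = 0.0678 to 0.0977). The 3 that fell were Notum, Sp5 and Nkd1, which are known as targets of β-catenin. Ccnd1, Myc and Tnfrsf19, also known as targets of β-catenin in other settings, rose. Notum, which removes the lipid from Wnt proteins, was at 37.6, 92.8 and 82.5 normalized CPM in control mice, 7.45, 10.3 and 7.34 in Atg7-KO mice, and 56.3, 73.1 and 59.1 in double-mutant mice. Atg7-KO mice were below all others. Notum fell 8.46-fold (adjusted p = 0.000139), and was 7.50-fold higher in double-mutant than in Atg7-KO livers (adjusted p = 0.000165), although 26.2% of its 75-base stretches occur in other transcripts. Sp5 fell 3.92-fold, from 3.32 ± 0.499 to 0.839 ± 0.116 normalized CPM (SD, n = 3, adjusted p = 0.000913), and its promoter window also held CTTTGAT, 104 bases before the start site, as did that of the periportal gene Hal, 199 bases before its start site. The genes that rose included Dkk3, of the Dickkopf family, at 5.73-fold, and Ccnd1, the cyclin D1 gene, at 4.48-fold. Tnfrsf19 rose 2.49-fold (adjusted p = 0.00849). Myc rose 3.05-fold (adjusted p = 0.0345), or 6.86-fold without control mouse 3 (adjusted p = 0.000179), the highest control mouse, and the call was lost without control mouse 2 or any 1 mouse of the mutant groups (adjusted p up to 0.107). Ccnd1 was 143 ± 71.1 normalized CPM in double-mutant livers, higher than the control 36.0 ± 18.8 (adjusted p = 0.0232), a call lost without control mouse 3 (0.0526), double-mutant mouse 2 (0.0669) or double-mutant mouse 3 (0.0706). Of its 75-base stretches 20.6% occur in another transcript, that of LTO1. Without Atg7-KO mouse 3 the whole pathway had 15 rather than 23 calls in Atg7-KO against control livers.

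Other pericentral genes, 15 in number and mostly drug and bile acid enzymes, had 11 lower and 1 higher in Atg7-KO against control livers, with a median of -2.29. Cyp2c54 fell 51.6-fold and Cyp2c37 fell 30.8-fold, both cytochrome P450 genes with about the same share, 14.1% and 13.8%, of stretches found in other transcripts. Cyp2e1, the ethanol-oxidizing P450 gene, fell 10.0-fold from 7530 ± 1521 to 751 ± 56.5 normalized CPM (SD, n = 3, adjusted p = 6.41e-05). It was 5.11-fold higher in double-mutant than in Atg7-KO livers, and its double-mutant against control difference was -0.97 (95% interval -1.61 to -0.333, adjusted p = 0.0555). Cyp1a2 did not pass, at 972 in control and 1219 normalized CPM in Atg7-KO livers (log2 difference 0.33, adjusted p = 0.254), and Slc13a3, a dicarboxylate transporter gene, rose 3.07-fold. In double-mutant against Atg7-KO livers 9 of the 15 were higher and 6 did not pass.

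Of 20 periportal genes 13 were lower and 3 higher in Atg7-KO against control livers, with a median of -1.40, and 13 were higher and 3 lower in double-mutant against Atg7-KO livers, with a median of 1.57. Ass1, a urea cycle enzyme gene, fell 10.1-fold (adjusted p = 0.000254), although 32.6% of its 75-base stretches also lie in Gm5424, and Hal, which breaks down histidine, fell 6.20-fold (adjusted p = 0.000129). Cdh1 and Aldh1b1 rose 4.95-fold and 5.01-fold, and without control mouse 1, the highest control mouse for Cdh1, the rise of Cdh1 was 9.51-fold (adjusted p = 4.83e-05). Both were called lower in double-mutant than in Atg7-KO livers. Each of those calls was lost without any 1 mouse of the mutant groups (adjusted p up to 0.097 for Cdh1 and 0.0746 for Aldh1b1). Cyp2f2, a periportal P450 gene, averaged 1015 in control and 743 normalized CPM in Atg7-KO livers (adjusted p = 0.418). Its control mice were at 1775, 805 and 463 and its Atg7-KO mice at 853, 725 and 651, so the higher control mean rested on control mouse 1. Most listed genes of both ends of the lobule were thus lower in Atg7-KO livers, and no test of the difference between the lists was made.

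**Figure D3:**
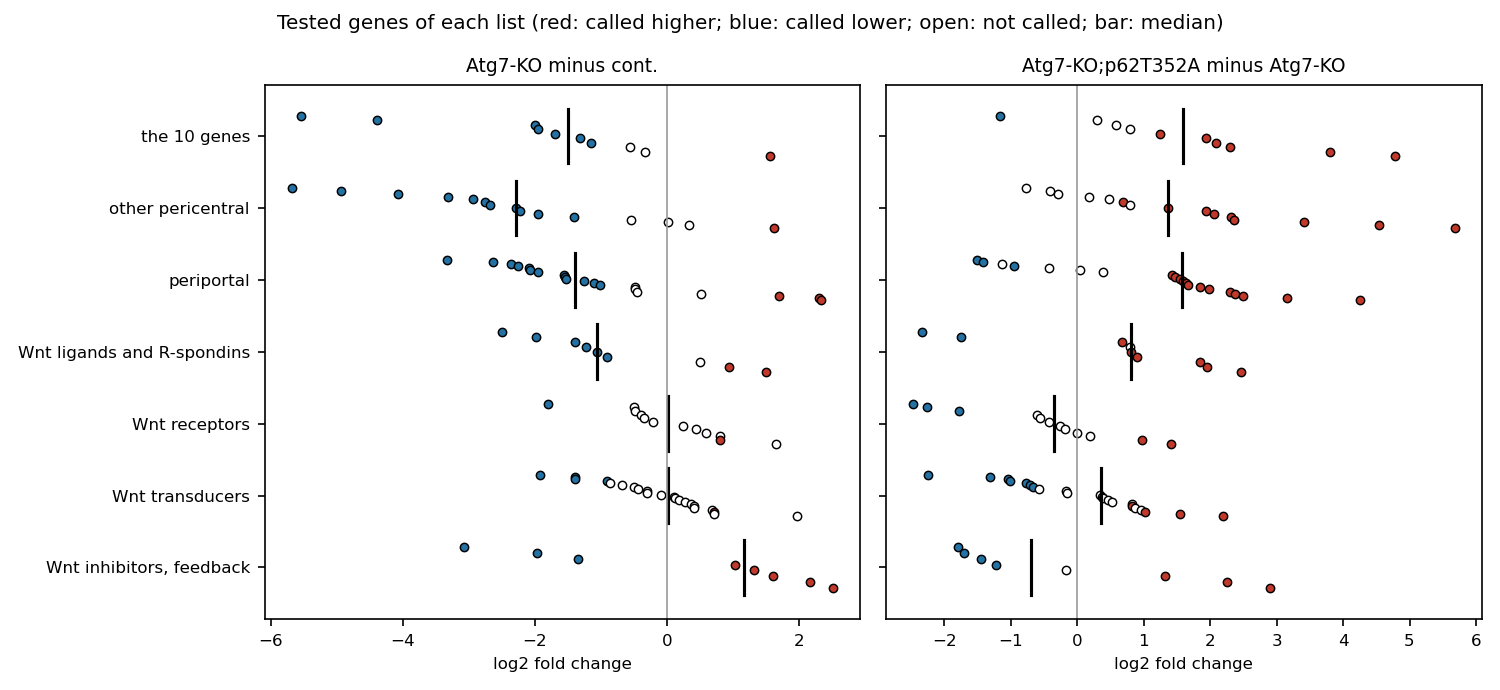
Log2 fold changes of each tested gene in 7 lists, for Atg7-KO against control (left) and double-mutant against Atg7-KO (right), red where called higher, blue where called lower and open where not called, with a bar at the list's median. In Atg7-KO livers the medians of the 10 genes, the other pericentral genes and the periportal genes were -1.51, -2.29 and -1.40, and those of Wnt receptors and transducers lay near 0.

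Markers of several liver cell types also differed between the groups. Of 6 tested hepatocyte markers 4 were lower in Atg7-KO against control livers, and their summed level was 38280 ± 1300 against 91050 ± 28700 normalized CPM (SD, n = 3), and 115100 ± 7800 in double-mutant livers. Alb, the most abundant of them, fell 2.40-fold (adjusted p = 0.00959), beside 4.01-fold for Glul. Cholangiocyte markers summed to 43.5 ± 9.07 in control, 942 ± 95.5 in Atg7-KO and 212 ± 48.2 in double-mutant mice, with 6 of 7 tested genes higher in Atg7-KO livers and Spp1 the most abundant at 871 ± 97.8. Sox9, another of them, averaged 4.87 in control, 25.7 in Atg7-KO and 30.8 normalized CPM in double-mutant livers, higher than control in both (adjusted p = 0.00017 and 0.00322). Stellate and mesenchymal markers had 7 of 9 and macrophage markers 6 of 8 genes higher in Atg7-KO livers. The stellate and mesenchymal sum was 938 ± 77.8 in Atg7-KO against 287 ± 30.1 in control livers. Dcn was its most abundant gene over all mice and in control livers (162), and Col3a1 was in Atg7-KO livers (345, beside 23.8 in controls). The macrophage sum was 747 ± 35.8 against 285 ± 25.5, with Clec4f its most abundant gene over all mice and in control livers (131) and Cd5l in Atg7-KO livers (235, beside 69.9 in controls). Their part in the levels of the 10 genes was not tested. No marker gene on these lists was at 0 in every mouse.

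Endothelial markers, which bear on the cells that make Wnt2, Wnt9b and Rspo3, summed to 418 ± 48.9 in control, 383 ± 10.9 in Atg7-KO and 248 ± 25.2 normalized CPM in double-mutant mice. Of 9 tested 3 were higher and 1 lower in Atg7-KO against control livers, and 5 were lower in double-mutant against control livers. In double-mutant against Atg7-KO livers none was higher and 4 were lower, with a median of -0.723. The 3 that were higher in Atg7-KO livers than in controls were Pecam1 (1.53-fold), Cdh5 (1.69-fold) and Lyve1 (2.97-fold), and all 3 were lower in double-mutant than in Atg7-KO livers. Without control mouse 2 the calls against controls were lost for Pecam1 (adjusted p = 0.0618) and Cdh5 (0.0835). Kdr, at 42.0 in control, 40.7 in Atg7-KO and 6.85 normalized CPM in double-mutant livers, was 6.14-fold lower in double-mutant livers than in controls (adjusted p = 0.00142). Eng, the most abundant over all mice, did not pass in any comparison (adjusted p = 0.663 in Atg7-KO against control). Stab2, the most abundant in control livers at 114 normalized CPM, was 2.27-fold lower in Atg7-KO (adjusted p = 0.00874) and 2.07-fold lower in double-mutant livers than in controls (adjusted p = 0.0447), the second a call lost without any 1 mouse but control mouse 1 (up to 0.131). NRF2 targets were all 14 higher in Atg7-KO than in control livers and all 14 lower in double-mutant than in Atg7-KO livers. None of the 14 was called between double-mutant and control livers by edgeR, 2 were by DESeq2 and 3 had an unadjusted p under 0.05 in edgeR. Their sum was 20730 ± 1440 in Atg7-KO, 4012 ± 1000 in double-mutant and 3159 ± 373 normalized CPM in control mice. The part of these cell type and NRF2 differences in the levels of the 10 genes was not tested.

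**Figure D4:**
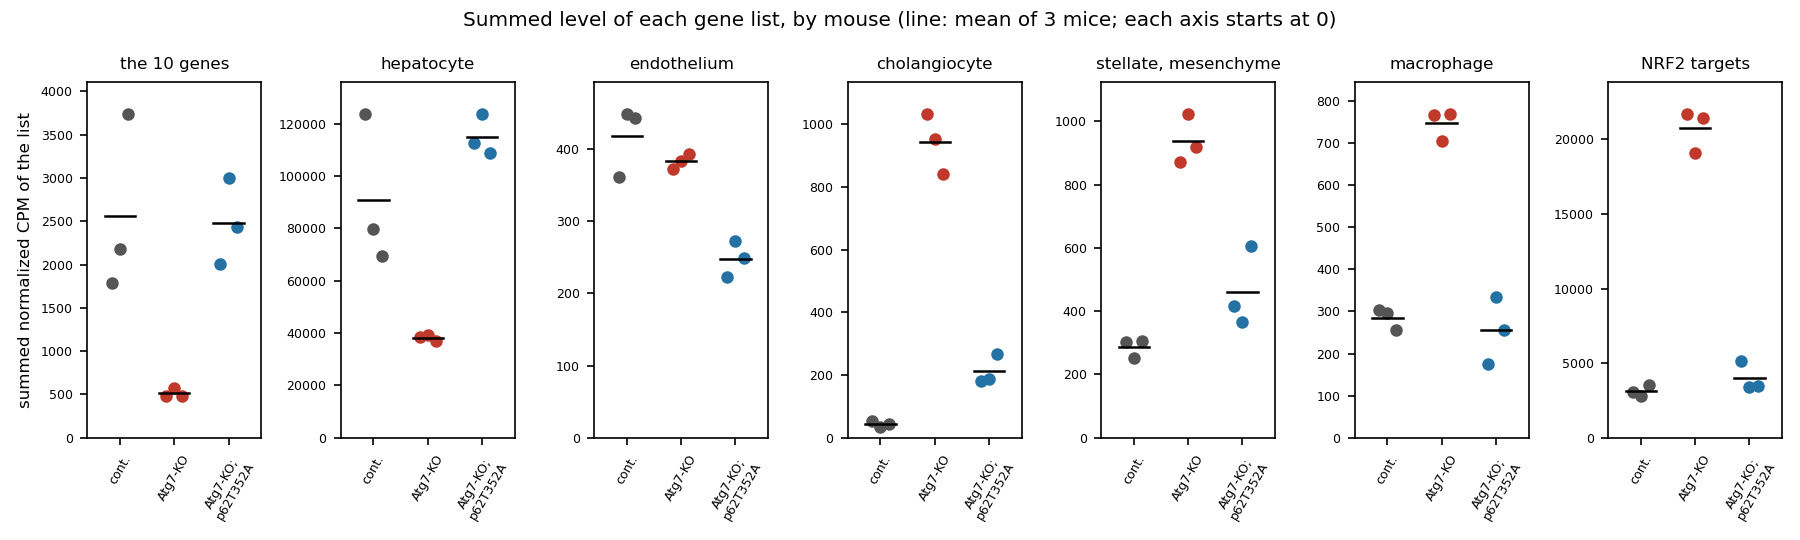
Summed normalized CPM of the 10 genes, of 5 lists of cell type markers and of 14 NRF2 targets in each mouse, with a line at the mean of 3 and each axis starting at 0. In Atg7-KO mice the 10 genes (478.6 to 575.3) and the hepatocyte markers lie below all other mice, and the cholangiocyte, mesenchymal, macrophage and NRF2 sums lie above them.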

How the data were processed

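Poly(A) RNA from whole livers was sequenced as 75-base single-end reads. The authors trimmed reads with Trim Galore, aligned them to mm10 with STAR and deposited RSEM expected counts per gene. Versions, annotation and strand setting are not given in the sources used here, and the labels and the study's methods name different RNA extraction reagents. Expected counts were rounded to whole numbers and fitted over all 9 libraries in R 4.3.3 with edgeR 4.0.16 (filterByExpr, TMM, quasi-likelihood test). Benjamini-Hochberg adjustment ran over 13922 genes, and calls needed a false discovery rate under 0.05 and a fold over 1.5. DESeq2 1.42.0, other scalings and filters, a replicate block and leaving out mice were alternatives. Without strand, Slc1a2, Axin2 and Tbx3 cannot be separated from antisense genes that overlap their exons. The 10 genes and all lists were chosen with earlier results of these data known. Genes named beside the 10 were the altered genes and Xist, 9 pathway and zonation genes chosen by name, the 2 largest called rises and falls of each list with a mean of 1 CPM or more, the 5 most like Glul and the most abundant markers. Nkd1, Myc, Tnfrsf19, Sfrp1, Sox9, Stab2, Pecam1, Cdh5, Lyve1, Kdr, Col3a1 and Cd5l were named after their values were seen. Mice are separate animals. The edgeR step was tested on simulated data in which 200 genes changed 4-fold in Atg7-KO libraries. It recovered 190 of them, with 9 false calls among 13523 unchanged genes. The real comparison had 6080 called genes, so the simulation does not cover changes that broad. Sequences and promoter windows are RefSeq's and positions GENCODE's, both on GRCm38.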

Additional observations from a re-analysis of the deposited data

How the results depend on the processing

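Calls for Glul, Oat, Slc1a2, Lgr5 and Tbx3 in Atg7-KO against control and in double-mutant against Atg7-KO livers, for Rhbg in the first and for Lect2 in the second held in all 18 alternatives. In double-mutant against control livers genes called among the 10 were 0 to 3 over single mice left out, other pericentral genes 0 to 6 (2 with all mice), periportal genes 0 to 5 (3 with all mice) and Wnt pathway genes 1 to 13 (9 with all mice). With DESeq2 other pericentral calls were 4, and with mice 2 and 3 alone they were 4 and periportal calls 6. Over all genes that comparison had 1613 calls, 988 with the replicate block, 2975 with mice 2 and 3 alone and 435 to 3245 over single mice left out. Wnt pathway calls in Atg7-KO against control livers ranged from 15 to 33.

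Double-mutant against control differences that turned sign were that of Tbx3, -0.0322 with mice 2 and 3 alone and -0.0448 to 0.70 over single mice left out, that of Lgr5, -0.10 to 0.36, and that of Oat, -0.87 to 0.14. The cause was not tested. The TMM factors differed by genotype, at 1.28 to 1.32 in Atg7-KO, 0.750 to 0.953 in control and 0.823 to 0.951 in double-mutant libraries. The levels and fold changes given here therefore depend on this scaling, and no fit was made without such factors. Upper-quartile scaling moved the median of all genes from -0.03 to 0.08 in Atg7-KO against control and from 0.00211 to -0.135 in double-mutant against Atg7-KO livers, and changed no call of the 10 genes.

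The labels do not say that a replicate number marks a shared litter or day. Deviations from group means correlated at -0.202 to 0.321 between same-numbered mice (mean 0.146, 9 pairs) and at a mean of -0.0705 between others (18 pairs). All pairs numbered 1 and 3 were over 0.1 and no pair numbered 2 was, and 6 of 9 mice correlated best with their own number, a hint from the data, not the design, that mice may share something by number. The mice numbered 1 also shared the very low Xist level given above, and its part in these correlations was not tested. Because the labels give no such link and not every pair was over 0.1, the fit without the block was kept. With the replicate block 7 of the 10 genes were called in Atg7-KO against control livers, Rnf43 being lost (adjusted p = 0.0509), 7 in double-mutant against Atg7-KO livers and 0 in double-mutant against control livers, and Wnt pathway calls in the last were 5. Depth limits Lgr5 most, with 47 to 62 counts in Atg7-KO libraries.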
